A study of Mus musculus with 2 samples.

Results

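The Onecut family of the mouse has 3 genes, *Onecut1*, *Onecut2* and *Onecut3*, and its expression was followed cell by cell in 2 single-cell RNA libraries of the embryonic telencephalon. The members were taken as the features carrying these symbols, 3 of 28001 listed for the septal explants and 3 of 32286 listed for the telencephalic vesicle, and every member was listed in each library. The septal library pooled explants around the septum from 8 E11.5 PGKCre;Rosa26YFP embryos and 4 E12.5 Dbx1Cre;Rosa26tdTomato embryos from 4 litters. The E11.5 embryos carry YFP in cells that have expressed the ubiquitous PGKCre, and the E12.5 embryos carry tdTomato only in cells whose ancestors or which themselves expressed *Dbx1*, while the sample label calls the pool wild-type C57BL/6J. The other library held the whole telencephalic vesicle of 3 wild-type C57BL/6J embryos from 2 litters, labelled E12 and described as E11.5 to E12 in the study's methods. Each condition had 1 library, single embryos could not be told apart within it, and no statistical test between conditions was possible.

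Onecut factors are transcription factors that bind DNA through a single cut domain followed by a homeodomain. They are best known from liver, pancreas, retina, spinal cord and hindbrain, where they act in newly generated cells, and in the nervous system they mark neurons born early in each region before later temporal factors such as the Nfi and Zfhx proteins come on. *Onecut1* (also named hepatocyte nuclear factor 6) is the founding member, *Onecut2* is broadly expressed in young neurons, and *Onecut3* is the most restricted of the family. In the early telencephalon the first neurons include Cajal-Retzius cells, which settle at the surface of the cortex, and glutamatergic neurons of the septum.

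Counts are unique molecular identifiers (UMIs), each standing for 1 captured transcript molecule, and a cell with at least 1 UMI of a gene is called positive for it. Levels are counts per 1000000 UMIs of the summed cells (CPM), with exact Poisson 95% intervals, and shares of cells carry exact Clopper-Pearson 95% intervals. Ratios of levels carry the exact interval for 2 counts, except between positive and negative neurons, where the interval is approximate. Where no cell of a group was positive, the upper limit given is the share that 3 counts in that group would make. All of them cover counting error only, since cells of 1 library are not replicates. The septal library held 5827 barcodes with a median of 12722 UMIs and the vesicle library 14283 barcodes with a median of 8503, and 5384 and 11758 cells were kept. The libraries were made with kit versions 2 and 3.1 and counted with different software versions, so levels were compared only within a library. Cells were clustered without the members, and clusters were named "-like" from marker lists that hold none of them. This gave 3411 apical progenitors (APs), 355 basal progenitors (BPs) and 1348 neurons in the septal explants and 6950, 639 and 1603 in the vesicle.

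The members resemble each other most in the coding sequence, and this matters for reads that could come from more than 1 of them. The most alike stretches of 120 coding bases were identical at 109 positions (90.8%) between *Onecut1* and *Onecut3*, at 108 (90%) between *Onecut2* and *Onecut3*, and at 105 (87.5%) between *Onecut1* and *Onecut2*. *Onecut1* lies on chromosome 9 of GRCm38 (mm10), plus strand, from 74861921 to 74891781, and *Onecut3* on chromosome 10, plus strand, from 80494835 to 80517276, each with 2 exons in the transcript used. The stretch shared by these genes is shown from their annotated transcripts (GENCODE, GRCm38), 5′ to 3′, with the 11 mismatched bases in capitals, and it belongs to the sequence that encodes the cut domain. It covers coding bases 979 to 1098 of *Onecut1* and 1057 to 1176 of *Onecut3*:
Onecut1: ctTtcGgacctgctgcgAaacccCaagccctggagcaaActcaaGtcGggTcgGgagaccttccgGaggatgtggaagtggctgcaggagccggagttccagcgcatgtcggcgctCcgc
Onecut3: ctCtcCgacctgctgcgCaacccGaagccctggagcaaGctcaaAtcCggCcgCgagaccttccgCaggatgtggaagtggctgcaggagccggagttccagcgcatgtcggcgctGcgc
The longest run of identical bases between the whole transcripts was 50 bases for this pair. Both libraries count reads near the 3′ end of a transcript, and the stretch ends 2483 bases from the 3′ end of *Onecut1* and 3427 bases from that of *Onecut3*. Within the last 500 bases of the transcripts, the longest identical run between any 2 members was 10 bases, so reads from there differ between the members.

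*Onecut2* gave most of the family's UMIs in both libraries. In the kept cells of the septal explants, *Onecut2* had 2725 UMIs in 853 cells, *Onecut3* had 81 UMIs in 57 cells and *Onecut1* had 52 UMIs in 47 cells. In the kept cells of the vesicle, *Onecut2* had 3263 UMIs in 1411 cells, *Onecut1* had 387 UMIs in 205 cells and *Onecut3* had 130 UMIs in 61 cells. The 3 transcripts differ in length (16234 bases for *Onecut2*, 3957 for *Onecut1* and 4776 for *Onecut3*), and counts near the 3′ end do not rank the amount of different genes. Detection of *Onecut1* and *Onecut3* rested on few molecules per cell. No cell of the septal explants had more than 2 UMIs of *Onecut1* or more than 4 of *Onecut3*, against up to 32 of *Onecut2*. In the vesicle the highest cell held 18 UMIs of *Onecut1*, 92 of *Onecut2* and 10 of *Onecut3*.

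All members were higher in neurons than in APs. In the septal explants, *Onecut1* stood at 2.48 CPM in neurons and 0.111 CPM in APs, a 22.2-fold ratio (interval 9.34 to 64.2). This ratio rested on 6 UMIs in APs. *Onecut2* stood at 127 CPM in neurons and 9.80 CPM in APs, a 12.9-fold ratio (11.7 to 14.3). *Onecut3* stood at 4.82 CPM in neurons and 0.0928 CPM in APs, a 52.0-fold ratio (21.3 to 165) that rested on 5 UMIs in APs. The ratios of these rarer members moved with the processing, from 11.3 with cell cycle genes kept in the clustering to 47.3 with all deposited barcodes for *Onecut1*, and from 36.9 with cell cycle genes kept to 92.8 with another random seed for *Onecut3*. Neurons made up 25% of the septal cells and 20.3% of their UMIs, yet held 75% of the *Onecut1*, 73.3% of the *Onecut2* and 93.8% of the *Onecut3* UMIs. All 3 members thus passed a 2-fold ratio, as did 17% of the 12800 genes compared in this library.

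The vesicle gave the same order of neurons and APs. *Onecut1* was at 21.2 CPM in neurons and 0.516 CPM in APs (41.1-fold, 31.5 to 54.2), and *Onecut2* at 134 and 8.75 CPM (15.3-fold, 14.2 to 16.5), which became 9.69-fold with another random seed. *Onecut3* was at 9.48 CPM in neurons and 0.0727 CPM in APs (130.5-fold, 68.5 to 279), on 10 UMIs in APs. The AP level of *Onecut1* lay within the interval of erythroid, macrophage and mesenchyme cells (0.265 CPM, 0.0546 to 0.773). Over the alternative settings the ratio was 27.62 to 60.55 for *Onecut1*, 9.69 to 15.27 for *Onecut2* and 92.55 to 129.3 for *Onecut3*. The ratios given here for *Onecut2* and *Onecut3* were thus the highest of all settings. Neurons held 7.13% of the UMIs of all genes in this library, against 68.2% of the *Onecut1*, 51.1% of the *Onecut2* and 90.8% of the *Onecut3* UMIs. Here too all 3 members passed the 2-fold ratio, beside 17.1% of 16000 genes. The share of positive cells in cells that should lack the family was low. Among erythroid, macrophage and mesenchyme cells, *Onecut2* had a UMI in 3 of 60 cells of the septal explants (5%, median depth 18554.5 UMIs) and in 15 of 966 cells of the vesicle (1.55%, median depth 8775.5), against 30.3% of septal neurons (median depth 10991) and 28.1% of vesicle neurons (median depth 6842).

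**Figure D1:**
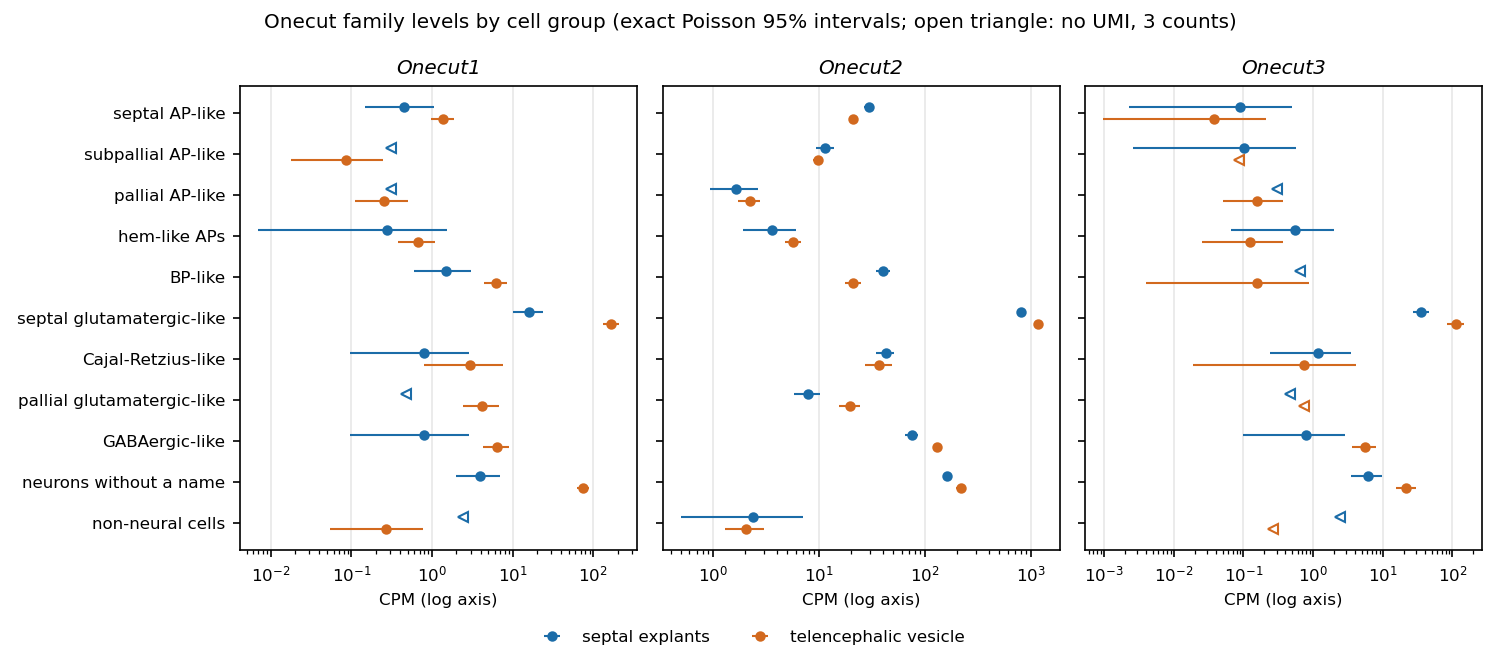
Level of each member in CPM (log axis) in groups of progenitors, neuron classes and non-neural cells of both libraries. Points are summed cells, bars are exact Poisson 95% intervals, and open triangles mark groups with no UMI, drawn at the level that 3 counts would give. Septal glutamatergic-like neurons were the highest named class for every member, with 797 CPM of *Onecut2* in the septal explants and 1148 CPM in the vesicle.

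Among the neuron classes, septal glutamatergic-like neurons stood highest for every member in each library. *Onecut2* had been left out of the marker list of septal glutamatergic neurons because, with *Isl1*, it already served to name them. Its top level in this class therefore restates a known marker. This class, which uses glutamate as its transmitter and carries *Isl1* and Zic genes, held 152 cells in the septal explants. *Onecut2* was found in 141 of them (92.8%, 87.4 to 96.3%), with a median of 6 UMIs per cell and a level of 797 CPM (753 to 843). The level fell class by class to 161 CPM (146 to 176) in neurons without a name, 74.8 CPM (64.5 to 86.3) in GABAergic-like neurons, 42.4 CPM (34.8 to 51.2) in Cajal-Retzius-like neurons and 7.82 CPM (5.81 to 10.3) in pallial glutamatergic-like neurons. No neighbours in this order had overlapping intervals, but the last one overlapped that of the non-neural cells (2.40 CPM, 0.495 to 7.02).

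The rarer members followed the same top class in the septal explants. *Onecut3* stood at 35.8 CPM (26.9 to 46.8) there and at 6.06 CPM in neurons without a name. In Cajal-Retzius-like and GABAergic-like neurons it stood at 1.18 and 0.80 CPM, on 3 and 2 UMIs with overlapping intervals. It had no UMI in 497 pallial glutamatergic-like neurons, an upper limit of 0.604% positive cells. *Onecut1* stood at 15.9 CPM (10.2 to 23.7) in septal glutamatergic-like neurons, at 3.92 CPM (1.96 to 7.01) in neurons without a name, and at 0.80 and 0.785 CPM in GABAergic-like and Cajal-Retzius-like neurons, where it rested on 2 UMIs each and the intervals overlapped. *Onecut1* also had no UMI in the 497 pallial glutamatergic-like neurons. Against all other neurons together, the septal glutamatergic-like class was higher by 15.1-fold (7.62 to 31.0) for *Onecut1*, 14.3-fold (13.0 to 15.6) for *Onecut2* and 23.2-fold (13.9 to 40.0) for *Onecut3*, which describes a class picked as the highest. When cell cycle genes were kept in the clustering, this class shrank to 31 cells and the *Onecut1* ratio to 5.02 (0.559 to 21.3), whose interval includes 1, while the ratios of *Onecut2* and *Onecut3* went to 21.8 and 41.8. With a minimum number of genes asked of each cell, the *Onecut3* ratio was 36.1. That filter kept 5383 of the 5384 septal cells, yet the class held 73 cells instead of 152. With another random seed the class held 81 cells, and over all settings it held 31 to 155. The levels and shares given here for this class thus rest on a size near the top of that range. The cause of the changes in size was not tested.

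The 62 septal glutamatergic-like neurons of the vesicle gave 168 CPM of *Onecut1* (132 to 210), 1148 CPM of *Onecut2* (1052 to 1251) and 111 CPM of *Onecut3* (82.7 to 146). *Onecut2* was found in 53 of these cells (85.5%), *Onecut1* in 32 (51.6%) and *Onecut3* in 18 (29.0%). One cell held 92 of the 527 *Onecut2* UMIs, and without it the level was 1055 CPM. For *Onecut1* the richest cell held 18 of the 77 UMIs, and without it the level was 143 CPM. For *Onecut3* the richest cell held 10 of the 51 UMIs, and without it the level was 91.2 CPM. The richest cell was picked for each member on its own, so these checks can share a cell. Outside this class, *Onecut2* stood at 216 CPM (196 to 239) in neurons without a name, 129 CPM (119 to 140) in GABAergic-like, 36.6 CPM (27.2 to 48.3) in Cajal-Retzius-like and 19.5 CPM (15.4 to 24.3) in pallial glutamatergic-like neurons. *Onecut1* stood at 74.1 CPM (62.2 to 87.7) in neurons without a name and at 6.34, 4.19 and 2.93 CPM in GABAergic-like, pallial glutamatergic-like and Cajal-Retzius-like neurons, whose intervals overlapped. *Onecut3* stood at 21.8 CPM (15.6 to 29.7) in neurons without a name and 5.49 CPM (3.59 to 8.05) in GABAergic-like neurons. In Cajal-Retzius-like neurons it stood at 0.732 CPM (0.0185 to 4.08), on 1 UMI, and this interval overlapped that of GABAergic-like neurons. It had no UMI in 521 pallial glutamatergic-like neurons, an upper limit of 0.576%. The septal glutamatergic-like class was higher than all other neurons by 10.8-fold (8.14 to 14.1) for *Onecut1*, 12.1-fold (10.9 to 13.4) for *Onecut2* and 19.9-fold (13.5 to 29.1) for *Onecut3*. With another random seed the class held 140 cells, and the ratios were 17.9 (14.1 to 22.6) for *Onecut1* and 48.1 (31.4 to 75.9) for *Onecut3*.

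The neuron clusters beneath the classes showed where the family sat. In the septal explants, 3 of 16 neuron clusters, with 242 cells or 18.0% of the neurons, held 84.6% of the neuronal *Onecut1* UMIs, 80.6% of the *Onecut2* UMIs and 93.4% of the *Onecut3* UMIs. The first was a septal glutamatergic-like cluster of 42 cells led by *Crabp1*, which encodes a retinoic acid binding protein, and *Nefl*, a neurofilament subunit. Each of its 42 cells had *Onecut2*, at a median of 13.5 UMIs and a level of 1256 CPM (1157 to 1361), beside 78.1 CPM of *Onecut3* (55.0 to 108) and 12.7 CPM of *Onecut1* (4.65 to 27.6). The second septal glutamatergic-like cluster, 110 cells led by *Shox2* and *Chodl*, had 587 CPM of *Onecut2* (541 to 635), 16.5 CPM of *Onecut3* (9.59 to 26.3) and 17.4 CPM of *Onecut1* (10.3 to 27.5). Both clusters carried *Isl1* (1368 and 670 CPM) and *Zic4* (431 and 689 CPM), which the naming rule required for their name. The *Crabp1* cluster was above the *Shox2* cluster for *Onecut2* and *Onecut3* with separate intervals. For *Onecut1* the intervals overlapped, so no order of the clusters is given for it.

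The remaining cluster of the 3 had no name under the rule used, because it carried genes of more than 1 class. It held 90 cells led by *Spon1* and *Gng8*, with *Tbr1*, a transcription factor of pallial glutamatergic neurons, at 634 CPM, *Lhx1* at 183 CPM and *Zic4* at 404 CPM, and with *Isl1* at 34.6 CPM. *Onecut2* was found in 66 of its cells (73.3%) at 328 CPM (297 to 362), *Onecut3* stood at 13.7 CPM and *Onecut1* at 7.24 CPM. The family was thus not limited to the *Isl1* clusters. The other clusters had *Onecut2* at 34.2 to 65.4 CPM in the 3 Cajal-Retzius-like clusters, at 69.2 and 85.7 CPM in the GABAergic-like clusters and at 3.76 to 17.1 CPM in the pallial glutamatergic-like clusters. *Onecut1* had no UMI in 9 of the 16 clusters and *Onecut3* in 10.

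In the vesicle, 3 of 20 neuron clusters, with 187 cells or 11.7% of the neurons, held 65.1% of the neuronal *Onecut2* UMIs and 91.5% of the *Onecut3* UMIs, and the 3 clusters richest in *Onecut1*, with 149 cells, held 75.8% of its UMIs. The septal glutamatergic-like cluster was again led by *Crabp1*, together with *D930028M14Rik*, a gene of unknown function. It expressed *Isl1*, which the naming rule required, at 530 CPM. An unnamed cluster of 58 cells led by *Gm28526* and *Grm7*, with *Lhx1*, *Tbr1* and *Calb2* at 274, 273 and 279 CPM and *Slc17a6* at 276 CPM, had 143 CPM of *Onecut1* (114 to 177), 479 CPM of *Onecut2* (425 to 537) and 54.9 CPM of *Onecut3* (37.8 to 77.0). Its *Onecut1* interval overlapped that of the septal glutamatergic-like cluster, whereas its *Onecut2* and *Onecut3* intervals lay below. A GABAergic-like cluster of 67 cells led by *Unc5d* and *Adarb2* had 455 CPM of *Onecut2* (402 to 513) in 51 of its cells (76.1%), 40.6 CPM of *Onecut3* (26.0 to 60.4) and 30.4 CPM of *Onecut1* (18.0 to 48.1). This cluster carried *Gad2* at 791 CPM, the cholinergic and ventral regulator *Lhx8* at 739 CPM and *Nkx2-1* at 244 CPM, so members of the family were high outside glutamatergic neurons too. Another unnamed cluster of 29 cells was led by *Otp* and *Sim1* (952 and 533 CPM), regulators of hypothalamic and amygdalar neurons, and had 182 CPM of *Onecut1* (128 to 252), 281 CPM of *Onecut2* (213 to 364) and 29.6 CPM of *Onecut3* (10.9 to 64.4). The *Onecut3* UMIs came from 2 cells, and without the richer of them the level was 10.5 CPM. The *Onecut1* interval of this cluster overlapped that of the septal glutamatergic-like cluster. Its summed level of the diencephalic or hypothalamic marker list was 1514 CPM against 24.0 to 838 CPM in the other neuron clusters. Whether cells from outside the telencephalon take part in it was not tested.

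**Figure D2:**
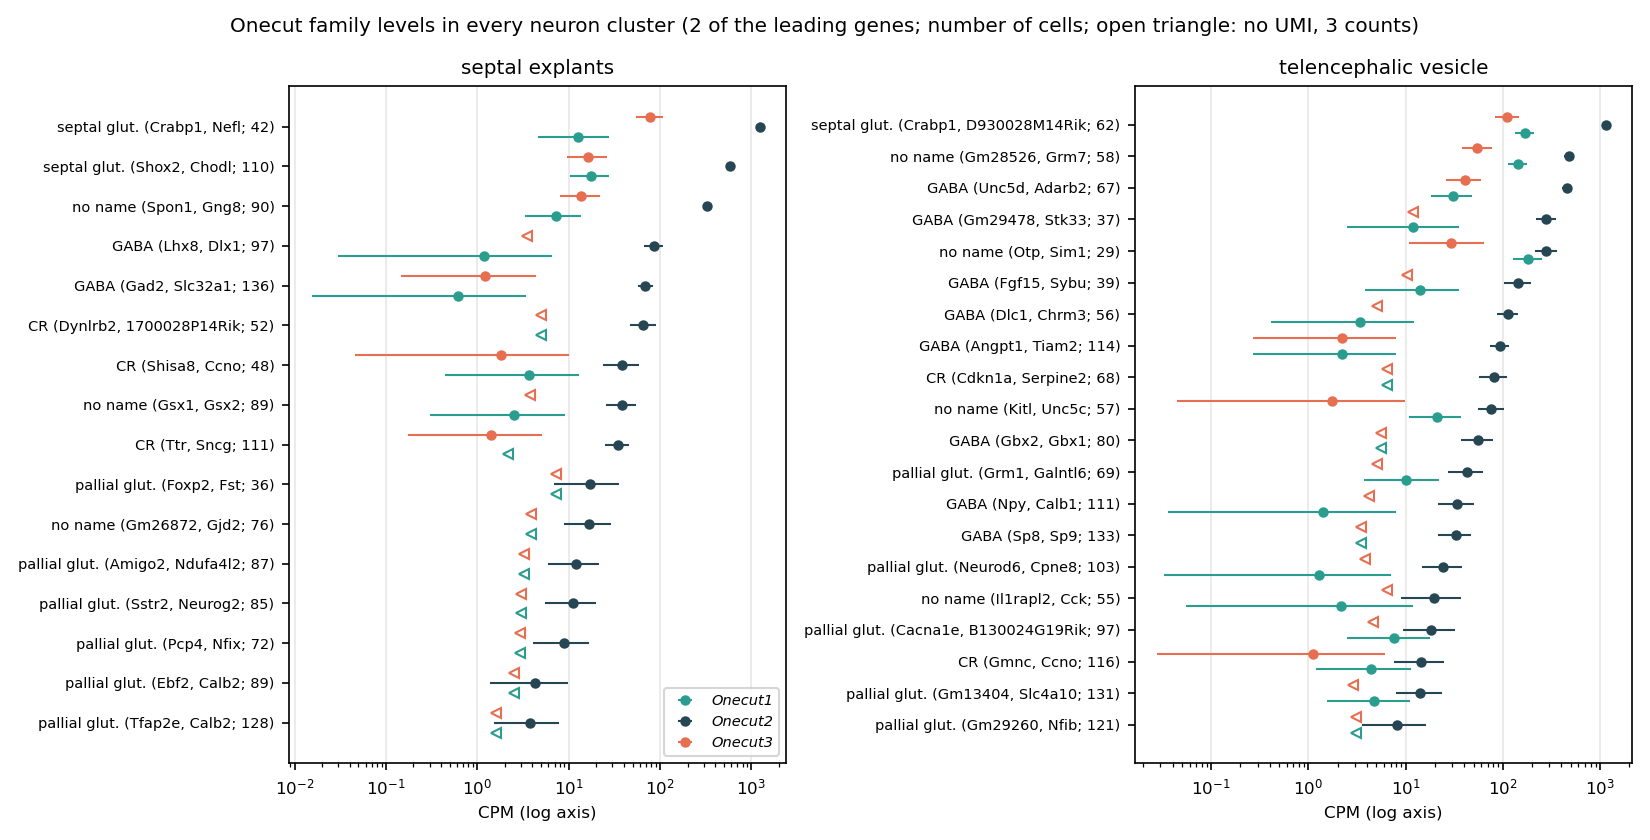
Level of each member in CPM (log axis) in every neuron cluster of the septal explants (16 clusters) and of the vesicle (20 clusters), ordered by *Onecut2* and labelled by class, 2 of its leading genes and number of cells. Points are summed cells with exact Poisson 95% intervals and open triangles are clusters with no UMI, drawn at 3 counts. *Onecut2* was found in all clusters, from 3.76 to 1256 CPM and from 8.21 to 1148 CPM, whereas *Onecut3* had UMIs in 6 of 16 and 7 of 20 clusters.

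Within the GABAergic-like class of the vesicle, *Onecut2* ran from 32.7 CPM (21.7 to 47.2) in a cluster led by *Sp8* and *Sp9* to the 455 CPM of the *Unc5d* cluster. Clusters led by *Fgf15* and by *Dlc1* had 143 CPM (102 to 193) and 113 CPM (87.7 to 144). *Onecut3* had no UMI in either of them or in the *Sp8* cluster, and *Onecut1* stood at 13.9 CPM in the *Fgf15* cluster and at 3.38 CPM in the *Dlc1* cluster, on 4 and 2 UMIs. Cajal-Retzius-like clusters had 14.4 and 80.3 CPM of *Onecut2*. The pallial glutamatergic-like clusters had 8.21 to 42.4 CPM of *Onecut2* and no *Onecut3*.

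Progenitors carried *Onecut2* at a lower level and with a regional order. In the septal explants it was found in 208 of 811 septal AP-like cells (25.6%) at 29.5 CPM (26.4 to 32.9), against 11.4 CPM (9.33 to 13.7) in subpallial AP-like, 3.57 CPM (1.90 to 6.11) in hem-like and 1.63 CPM (0.934 to 2.65) in pallial AP-like cells. Septal AP-like cells were 2.60-fold above subpallial AP-like cells (2.09 to 3.26). The pallial AP-like cells were positive in 2.82% and stood no higher than the non-neural cells, at 2.40 CPM (0.495 to 7.02), so no ratio to them is given. The intervals of hem-like and pallial AP-like cells overlapped, and 1 hem-like cell held 8 of the 13 UMIs of its group. In the vesicle the order was 20.7 CPM (19 to 22.5) in septal AP-like, 9.71 CPM (8.71 to 10.8) in subpallial AP-like, 5.72 CPM (4.80 to 6.76) in hem-like and 2.21 CPM (1.72 to 2.79) in pallial AP-like cells. There, septal AP-like cells were 2.13-fold above subpallial AP-like cells (1.86 to 2.45), and the interval of pallial AP-like cells overlapped that of the non-neural cells (2.03 CPM, 1.29 to 3.04).

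*Fgf8* or *Fgf17*, signals of the rostral patterning centre, were among the leading genes of the AP clusters with most *Onecut2*. In the septal explants these were a cluster led by *Fgf8* and *Pax8* (37.4 CPM, 29.1 to 47.3) and one led by *Megf11* and *Fgf17* (34.0 CPM, 28.0 to 40.8). In the vesicle, a septal AP-like cluster of 469 cells led by *Fgf17* and *Fgf8* had 45.3 CPM (40.9 to 50), against 8.52 CPM (7.21 to 9.99) in the other septal AP-like cluster. Subpallial AP-like cells were highest in the septal explants in the cluster led by *Nkx2-1* (25.5 CPM, 19.5 to 32.7), where 1 cell held 18 of the 61 UMIs. *Onecut1* was found in few APs, with 5 UMIs in septal AP-like cells of the septal explants and 36 in those of the vesicle, where its level was 1.37 CPM (0.957 to 1.89). Non-neural cells of the vesicle had 0.265 CPM (0.0546 to 0.773) on 3 UMIs, and the levels in pallial (0.253 CPM) and subpallial AP-like cells (0.0850 CPM) did not exceed it. *Onecut3* had 5 UMIs in all 3411 APs of the septal explants and 10 in all 6950 APs of the vesicle, too few to order its regions. BP-like cells, the dividing daughters of APs, had *Onecut2* at 40.2 CPM (34.7 to 46.4) in the septal explants and 21.0 CPM (17.6 to 24.9) in the vesicle. Intermediate subpallial cells, from clusters counted as neither APs, BPs nor neurons, had 44.4 CPM (38.9 to 50.5) in 623 cells of the vesicle. In 72 such cells of the septal explants it was 5.95 CPM (2.18 to 12.9), on 6 UMIs. Within the septal BPs, the cluster led by *Neurod4* and *Neurog1* was at 71.2 CPM (59.1 to 85.0) and the one led by *Neurog2* and *Tfap2c* at 22.5 CPM (17.4 to 28.5). *Onecut3* had no UMI in 355 septal BPs, an upper limit of 0.845%, and 1 UMI in 639 BPs of the vesicle.

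Within septal glutamatergic-like neurons the level of *Onecut2* went up with the neuronal axis, a score that sets the UMIs of 11 neuronal genes against those of 9 AP genes in each cell. With the cells of the septal explants divided into 3 bins along it, *Onecut2* stood at 545 CPM (480 to 616), 647 CPM (578 to 721) and 1149 CPM (1061 to 1243). *Onecut3* stood at 10.7 CPM (3.48 to 25), 34.3 CPM (20 to 55.0) and 58.7 CPM (40.1 to 82.8), with separate intervals in the lowest and highest bins. *Onecut1* stood at 10.7, 28.3 and 9.16 CPM with overlapping intervals, so no direction was seen for it. In the vesicle, *Onecut2* stood at 544, 799 and 1772 CPM, *Onecut3* at 24.0, 36.7 and 218 CPM, and *Onecut1* at 71.9 (32.9 to 137), 169 (107 to 253) and 228 CPM (166 to 305). Without the cell richest in the gene, the highest bin still had 1708 CPM of *Onecut2*, 176 CPM of *Onecut3* and 179 CPM of *Onecut1*. The axis counts *Nefl* and *Nefm*, which themselves were higher in neurons positive for a member, and the part of these genes in the order was not tested. In the septal explants the class also pools the *Crabp1* cluster, led by *Crabp1* and *Nefl*, with the *Shox2* cluster, which had less *Onecut2* and *Onecut3*. How far the bins only sort these clusters was not tested.

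**Figure D3:**
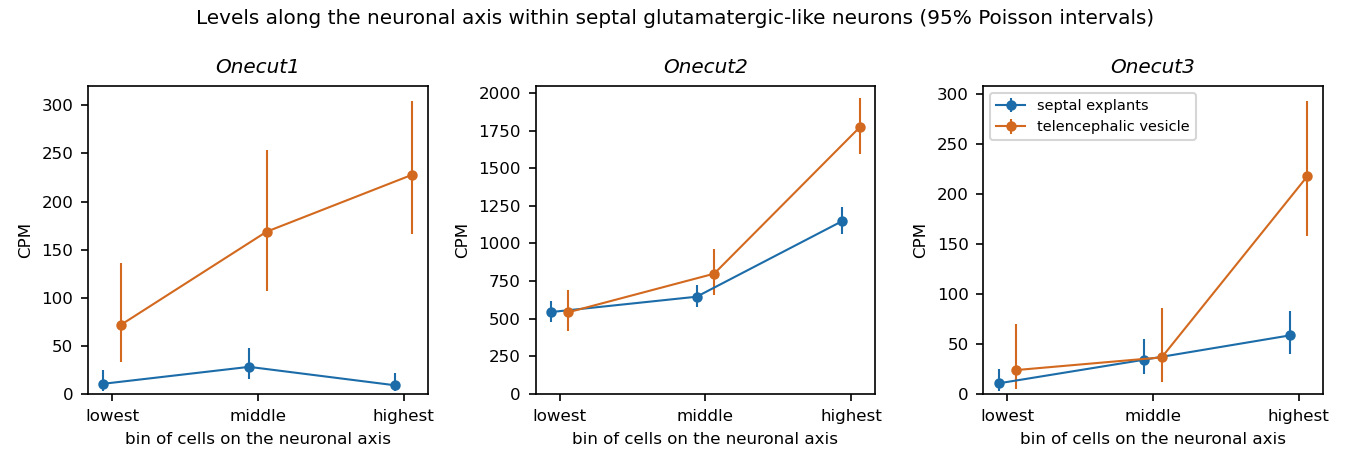
Level of each member in CPM in 3 bins of septal glutamatergic-like neurons along the neuronal axis, with 50 or 51 cells a bin in the septal explants and 20 or 21 in the vesicle. Points are summed cells, lines join the bins of a library and bars are exact Poisson 95% intervals. *Onecut2* was highest in the highest bin of each library, at 1149 and 1772 CPM.

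Members were found together in the same neurons, mainly as *Onecut2* with 1 of the others. In the septal explants, 410 of 1348 neurons (30.4%) had at least 1 member and 80 (5.93%, 4.73 to 7.33%) at least 2. *Onecut2* alone was found in 329 neurons, *Onecut2* with *Onecut3* in 47, *Onecut2* with *Onecut1* in 27 and all 3 members in 6. *Onecut1* was the only member in 1 neuron and *Onecut3* in none. Thus 53 of 53 *Onecut3*-positive and 33 of 34 *Onecut1*-positive neurons also had *Onecut2*. In the vesicle, 474 of 1603 neurons (29.6%) had at least 1 member and 102 (6.36%, 5.22 to 7.67%) at least 2. Here *Onecut2* alone was found in 348 neurons, with *Onecut1* in 53 and with *Onecut3* in 12, all 3 members in 37, *Onecut1* alone in 23 and *Onecut3* alone in 1. So 49 of 50 *Onecut3*-positive but 90 of 113 *Onecut1*-positive neurons had *Onecut2*.

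The share with at least 2 members followed the classes. It was 34.2% (26.7 to 42.3%) in septal glutamatergic-like neurons of the septal explants, 7.84% in neurons without a name, 2.37% in Cajal-Retzius-like, 1.29% in GABAergic-like and 0 of 497 in pallial glutamatergic-like neurons. In the vesicle it was 54.8% (41.7 to 67.5%) in septal glutamatergic-like neurons, 20.6% in neurons without a name, 3.61% in GABAergic-like, 0.768% in pallial glutamatergic-like and 0 of 184 in Cajal-Retzius-like neurons. Detection of rare transcripts depends on depth. With neurons thinned to 8000 UMIs and shallower ones left out, the share was 3.69% of 1191 septal neurons. With 5500 UMIs in the vesicle it was 5.66% of 1254 neurons. In septal glutamatergic-like neurons the share was then 28.2% of 117 cells and 52.2% of 46 cells. The thinned shares cover fewer cells, so they do not show the effect of depth alone. When at least 2 UMIs of a member were asked for, the share over all neurons was 1.63% in the septal explants and 3.49% in the vesicle.

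Because members shared clusters, joint detection was set beside the number expected from the shares within each neuron cluster. The ratio carries the Poisson interval of the number found together, with the expected number taken as known. In the septal explants the 3 pairs were found together 1.08 to 1.26 times the expected number, with all intervals including 1. There 53 of 53 *Onecut3*-positive and 33 of 34 *Onecut1*-positive neurons had *Onecut2*, so ratios of pairs with *Onecut2* could hardly have been higher. Intervals that include 1 therefore do not show that an excess was absent. In the vesicle, *Onecut1* and *Onecut3* were found together in 37 neurons against 18.5 expected (ratio 2, 1.41 to 2.75) and *Onecut1* and *Onecut2* in 90 against 69.1 expected (ratio 1.30, 1.05 to 1.60). *Onecut2* and *Onecut3* gave 49 against 37.3 (ratio 1.31, 0.972 to 1.74). This pair too was near its highest possible ratio, since 49 of 50 *Onecut3*-positive neurons had *Onecut2*. On thinned cells the vesicle ratios were 1.99 (1.25 to 3.01) for *Onecut1* and *Onecut3*, 1.42 (1.08 to 1.83) for *Onecut1* and *Onecut2*, and 1.47 (1.02 to 2.04) for *Onecut2* and *Onecut3*, whose interval then lay above 1. With at least 2 UMIs of each member, the last pair gave 1.69 (1.11 to 2.46). The part of differences in maturity within a cluster in these ratios was not tested.

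**Figure D4:**
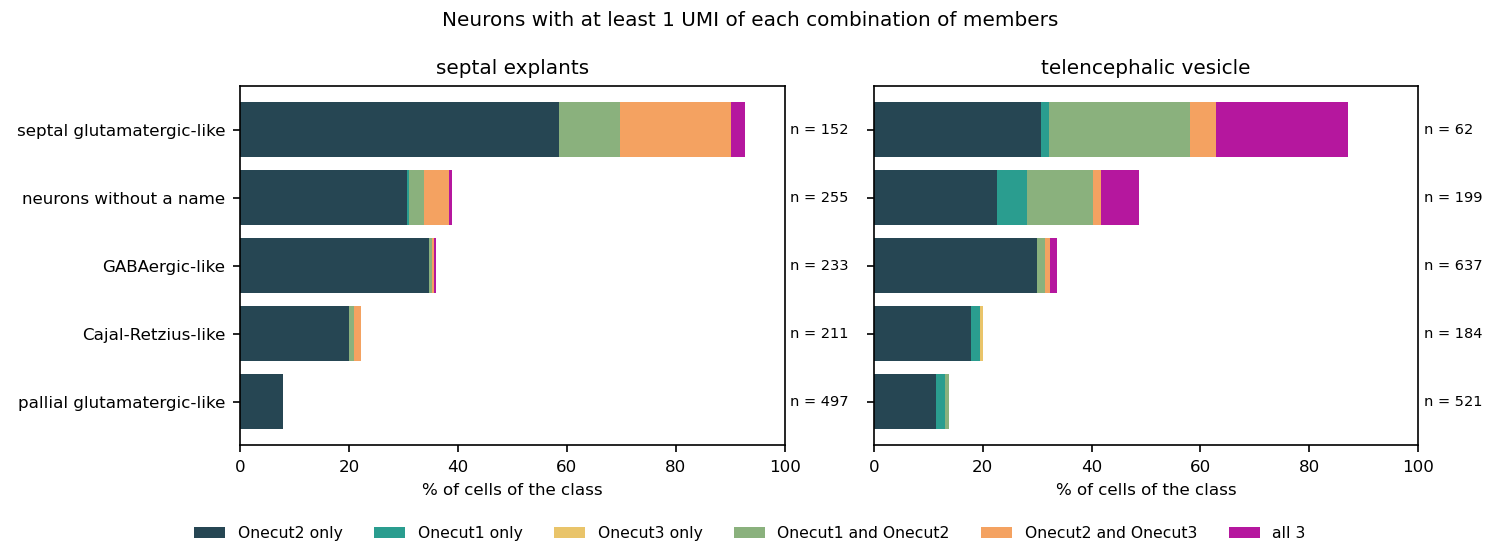
Share of the neurons of each class (x axis, % of cells, with n at the right) that had at least 1 UMI of each combination of members, in the septal explants and the vesicle. Stacked bars add up to the share with any member. At least 2 members were found in 34.2% and 54.8% of septal glutamatergic-like neurons and in none of the 497 pallial glutamatergic-like neurons of the septal explants.

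The reporters assigned part of the septal cells to 1 of the 2 pools of embryos. YFP was taken as present from 3 UMIs and tdTomato from 1 UMI, which gave 3023 YFP cells, assigned to the E11.5 embryos, and 365 tdTomato cells, assigned to the *Dbx1* lineage of the E12.5 embryos. A further 1330 cells had no UMI of either reporter, while 628 cells with 1 or 2 YFP UMIs and 38 cells with both reporters were set apart. Among all neurons, *Onecut2* stood at 258 CPM (233 to 284) in 123 tdTomato cells, 130 CPM (122 to 138) in 720 YFP cells and 85.4 CPM (75.9 to 95.8) in 307 cells with neither. Within septal glutamatergic-like neurons it was 1007 CPM (893 to 1131) in 27 tdTomato cells, 744 CPM (687 to 803) in 84 YFP cells and 777 CPM (670 to 895) in 26 cells with neither. Within septal AP-like cells it was 63.1 CPM (47.3 to 82.6) in 61 tdTomato cells, 24.9 CPM (21.4 to 29.0) in 463 YFP cells and 28.1 CPM (21.7 to 35.9) in 191 cells with neither. *Onecut2* was thus higher in tdTomato than in YFP cells in all 3 of these groups with separate intervals. Within septal glutamatergic-like neurons the tdTomato interval overlapped that of the cells with neither reporter. Its values in other groups of cells are not given here. The 3 groups are not independent, since all neurons include the septal glutamatergic-like ones. These were 27 of the 123 tdTomato but 84 of the 720 YFP neurons, and their part in the difference over all neurons was not tested. *Onecut3* stood at 8.48 CPM (4.51 to 14.5) in tdTomato and 5.89 CPM (4.39 to 7.75) in YFP neurons, and *Onecut1* at 1.96 CPM (0.404 to 5.72) and 3.35 CPM (2.24 to 4.81), with overlapping intervals. Stage and lineage cannot be told apart between these cells.

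Neurons with at least 1 member were then compared with neurons of the same cluster that had none. For the septal explants this left 368 of the 410 positive neurons, since all 42 cells of the *Crabp1* cluster were positive and had no negative cells to be set against, and in the vesicle all 474 were compared. In the *Shox2* cluster 99 of 110 cells were positive, and in the septal glutamatergic-like cluster of the vesicle 54 of 62. Few negative cells thus stood behind the expected numbers in these clusters. Median depth was 10595 UMIs in positive and 11099.5 in negative neurons of the septal explants, and 7659.5 and 6634 in those of the vesicle. Of the genes with at least 50 UMIs in neurons, 2.17% of 10410 were at least 2-fold higher in positive septal neurons and 1.18% at least 2-fold lower, and in the vesicle 1.67% of 11237 were higher and 0.748% lower. *Crabp1*, *D930028M14Rik* and *Spon1* were among the 10 genes with the highest lower bound in each library. *Crabp1* was 12.1-fold higher in the septal explants (8.30 to 18.2) and 15.1-fold in the vesicle (9.69 to 24.7), and 1 septal cell held 49 of its 394 UMIs in the positive neurons compared. In the vesicle 1 cell held 107 of its 648 UMIs in positive neurons. *D930028M14Rik* was 11.3-fold higher (7.37 to 18.4), with 1887 UMIs in positive and 52 in negative septal neurons, and 5.59-fold higher in the vesicle (3.67 to 8.96). *Spon1*, which encodes the secreted axon guidance protein F-spondin, was 8.03-fold (3.21 to 27.3) and 5.48-fold higher (3.25 to 9.91). Other leading genes rested on single cells, such as *Ttr* in the septal explants with 123 of its 126 UMIs of positive neurons in 1 cell. In the vesicle the list also held *Calcr*, the calcitonin receptor, at 28.4-fold (9.48 to 131). It rested on 46 UMIs in 15 positive neurons, 13 of them in 1 cell, against 4 UMIs in negative neurons. *Spon1* had 119 UMIs in positive and 6 in negative septal neurons, and 157 and 40 in the vesicle. *Calcr* and *Spon1* thus reached the limit of 50 UMIs only through the positive neurons, and their ratios are descriptions.

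Lists of regulators grouped by role showed few differences of that size, and so did the genes as a whole. Of all genes tested, 2.17% were higher and 1.18% lower in the septal explants, and 1.67% and 0.748% in the vesicle. Counts of 0 in lists this short are near these shares and are no result about the lists. Of 10 later temporal factors, 0 passed 2-fold in either direction in the septal explants, where the list's median ratio was 1.05 beside 1.01 over all genes tested. In the vesicle *Neurod6*, a factor of maturing pallial neurons, was 2.08-fold higher (1.21 to 3.50) and *Nfix* 0.343-fold (0.119 to 1.08), with a list median of 0.975 beside 1.03 over all genes. Of the LIM-homeobox and Isl factors, 0 of 9 tested passed in the septal explants and 0 of 10 in the vesicle. *Isl1*, which specifies several early neuron types, had a ratio of 0.978 (0.861 to 1.11) in the septal explants and 1.59 (1.43 to 1.78) in the vesicle. Of the Ebf, Nhlh and Pou4f factors, which act in newborn neurons, 0 of 7 and 0 of 8 tested passed. Among the other cut homeobox genes, *Cux2* was 0.445-fold in the septal explants (0.211 to 0.988) and 1.16-fold in the vesicle (0.827 to 1.65), and *Cux1* was 1.09-fold and 0.804-fold. The neurofilament genes of the neuronal axis were higher, *Nefl* by 2.83-fold (1.98 to 4.16) and 2.94-fold (2.27 to 3.85), *Nefm* by 1.63-fold and 1.83-fold.

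The genes most like the members in their pattern were sought over all clusters, by Pearson's correlation of log2(CPM + 1) over the 37 clusters of the septal explants and the 40 of the vesicle. These clusters share a library and a depth profile, and the values are descriptions. *D930028M14Rik* was among the 5 most alike genes in 5 of 6 cases, with r of 0.813, 0.857 and 0.846 for *Onecut1*, *Onecut2* and *Onecut3* in the septal explants and 0.813 for *Onecut1* and 0.747 for *Onecut3* in the vesicle. *Chrna4*, a nicotinic acetylcholine receptor subunit, was alike to *Onecut2* in the septal explants (0.857) and to *Onecut1* in the vesicle (0.701), and *Crabp1* to *Onecut3* in the septal explants (0.716). Among themselves, the members had r of 0.729 to 0.843 in the septal explants and 0.665 to 0.816 in the vesicle, with the highest value for *Onecut1* and *Onecut3* in each.

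For *Onecut2*, the most alike gene in the vesicle was *St8sia3* (r = 0.874), which encodes a brain sialyltransferase. It lies upstream of *Onecut2* on the same strand of chromosome 18 (GRCm38). There *St8sia3* ends at 64279611 and *Onecut2* runs from 64340020 to 64400987, 60408 bases further on. Other genes between them were not looked for. *Ssc5d* (0.860), *Myo16* (0.838), *Mmp24* (0.828) and *Thsd7a* (0.827) followed.

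Annotated long non-coding RNAs overlap *Onecut1* or lie upstream of it. *Gm20649*, on the same strand, shares 2171 of the 3957 exon bases of *Onecut1* and ends 305 bases before its 3′ end. It was listed for the septal explants only, where neurons held 34 of its UMIs and 39 of *Onecut1*, and septal glutamatergic-like neurons 26 and 24. Of the 26 neurons positive for *Gm20649*, 5 also had *Onecut1*. *Gm20649* stood at 27.4 CPM (14.6 to 46.9) in the *Crabp1* cluster and at 12.6 CPM (6.70 to 21.5) in the *Shox2* cluster, with overlapping intervals. The counting software leaves out reads that fit more than 1 listed gene. The part of the shared exon bases in the *Onecut1* counts, also in these clusters, was not tested. *Gm16551*, which ends 1786 bases upstream of *Onecut1*, was listed for the vesicle only. It shares no exon bases with *Onecut1* and had 124 UMIs in neurons, and 42 of the 62 neurons positive for it also had *Onecut1*. Like *Onecut1* it was high in septal glutamatergic-like neurons, at 100 CPM (73.4 to 134). The clusters below differed in order from those of *Onecut1*, with 60.9 CPM (42.6 to 84.3) of *Gm16551* in the *Unc5d* cluster and 29.9 CPM (17.7 to 47.3) in the *Gm28526* cluster. The *Otp* and *Sim1* cluster had 49.3 CPM of it, from 2 cells.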

How the data were processed

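For both libraries the authors deposited raw counts, which are UMIs of each gene in each barcode and are not normalised. Per the submitters' processing notes, counts were made with Cell Ranger 2.1.1 for the septal explants and 7.1.0 for the telencephalic vesicle, on mm10. The septal gene list also holds the reporters. Whether intronic reads were counted is not given in the sources used here. The members, the gene lists and the marker lists were chosen with earlier results of these data known.

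Cells with a mitochondrial share over 3 MAD from the median (383 and 1812) and Scrublet doublets (60, 1.10%, against 4.36% expected, and 713, 5.72%, against 9.98%) were removed. Scrublet was run in scanpy 1.11.5. Depth ran from 3902 to 84281 UMIs per barcode in the septal explants and from 500 to 207131 in the vesicle, and 1 barcode sequence occurred in both libraries. Counts were scaled to 10000 per cell, and 2000 variable genes without members, reporters, sex-linked and 97 cell cycle genes, 30 principal components, 15 neighbours and Leiden at 1.5 (igraph 0.11.9) gave 29 and 25 clusters. Neurons were clustered again at the same resolution into 16 and 20 clusters, of which 3 and 4 kept no name. A class needed 3 markers detected in 5% of cells at 1.5 times the mean of other clusters, and neuron clusters were named by the presence of the defining markers of 1 class. The latter rule was set after the clusters had been seen. In the vesicle, 977 cells of shallow clusters were left out of the classes, as were 138 cells of an unnamed septal cluster.

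For the genes compared between positive and negative neurons, the UMIs in positive neurons were divided by those expected from negative neurons of the same cluster, for genes with at least 50 UMIs, and the text takes its examples from the 10 with the highest lower interval bound. Some genes are not reported here. For likeness, genes with at least 200 UMIs were ranked by r and the first 5 named. The interval of this stratified ratio is approximate and uses an effective count for the negative neurons, since clusters weigh unequally. The ratio was tested on simulated Poisson counts drawn at the rates of each cluster. These lack other variation between cells of a cluster, so they do not show that the intervals hold for genes concentrated in single cells. A group with no UMI is given at 3 counts. Thinning drew each cell down to 8000 or 5500 UMIs, the largest multiple of 500 that 90% of neural cells reach, and left out 405 and 961 shallower neural cells. Sequences and coordinates are from GENCODE annotation of GRCm38. Alternatives covered doublets, filters, clustering, neuron definition and thinning. The scripts ran in Python 3.11.15 with matplotlib 3.10.9, anndata 0.12.19, pandas 2.3.3, scikit-learn 1.9.0, scipy 1.17.1 and numpy 2.4.6.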

Additional observations from a re-analysis of the deposited data

How the results depend on the processing

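Of 131 alternative values, 99 stayed within the counting interval of the main value and 32 moved outside it. None of the ratios changed direction, which the shares with at least 2 members could not do by definition. For neurons over APs, *Onecut1* in the vesicle gave 27.6 with another random seed and 60.5 on thinned cells. The ratio for *Onecut2* in the septal explants gave 14.7 with all deposited barcodes, 14.9 with another seed, 9.02 with cell cycle genes kept in the clustering, 14.96 with doublets kept and 14.3 with neurons taken as the top 20% of neural cells on the neuronal axis. In the vesicle it gave 13.2 and 12.8 at Leiden resolutions 0.8 and 2.5, 14.1 with all barcodes, 9.69 with another seed, 12.8 with a minimum number of genes per cell, 14.2 with doublets kept, 13.2 on thinned cells and 13.3 with the top 20%.

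For septal glutamatergic-like over other neurons, the cell cycle alternative in the septal explants gave 5.02 for *Onecut1*, 21.8 for *Onecut2* and 41.8 for *Onecut3*, and Leiden at 0.8 gave 16.6 for *Onecut2*. In the vesicle another seed gave 17.9 for *Onecut1* and 48.1 for *Onecut3*, and *Onecut2* gave 13.7 at Leiden 2.5, 13.7 with a minimum number of genes per cell, 10.4 with doublets kept and 10.7 on thinned cells. The class held 31 to 155 cells in the septal explants and 60 to 140 in the vesicle, except that no cluster took its name in the vesicle at Leiden 0.8, which gave no value there.

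The share of neurons with at least 2 members was 1.63% when at least 2 UMIs were asked for, 4.01% with cell cycle genes kept and 3.69% on thinned cells in the septal explants. In the vesicle it was 3.49% with at least 2 UMIs, 4.66% and 5.15% at Leiden 0.8 and 2.5, and 4.58% with another seed. The cause of these shifts was not tested. Leaving out the cell with most UMIs of a member was chosen after seeing the data. No paired analysis was possible because each group has 1 library, and no library could be left out. *Onecut1* and *Onecut3* rested on the fewest UMIs, with 39 and 76 in all septal neurons. The cause of these low counts was not tested.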
